A study of Orestias ascotanensis with 42 samples.

Results

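The comparison of summer with winter fish was made over all 3 sampled tissues at once in Orestias ascotanensis, a killifish of a salt pan at 3740 m in the Andes. The series holds 42 small RNA libraries, from the gills, the skin and the muscle of 14 wild adults, 7 with the treatment label winter and 7 with summer. All 42 entered, 21 from winter and 21 from summer fish. The 3 tissues of a fish were averaged on a log2 scale, and the difference of the 7 summer fish from the 7 winter fish is the season main effect. A positive difference is higher in summer throughout. The treatment label is the season alone: the fish were netted on a July and a January date, so season and collection date cannot be told apart. Since titles read summer in both collections, the direction of every difference rests on the treatment label. The labels give no sex, size or spring of origin.

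MicroRNAs are short RNAs that guide Argonaute proteins to messenger RNAs with partial sequence complementarity, mostly through the seed near the 5′ end, and lower the output of those messages. Members of a family share the seed and often lie in several clusters of the genome. Their levels differ strongly between cell types, so in whole tissue a change in level can accompany a change in cell makeup. In these bulk samples, fewer cells of a type and less RNA per cell cannot be told apart.

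Summed counts over miRNA names ran from 598084 in the gill library of fish summer 4 and 1196380 in that of fish winter 2 to 57710548 in a summer muscle library. Per fish, the mean log2 summed count was 23.63 ± 0.36 in winter and 24.21 ± 0.46 in summer (SD, n = 7 fish each). The difference of 0.58 did not pass after adjustment over 3 library measures (two-sided exact permutation p = 0.0268, adjusted 0.0804). It was largest in gills, at 1.205 (exact permutation p = 0.187, not adjusted), against 0.14 in skin and 0.39 in muscle. Median summed counts of gill libraries were 4947715 in winter and 20423114 in summer, with overlapping ranges. Depth and season cannot be fully told apart in gills. The share held by the 10 most abundant names (73.2% and 74.1%, exact permutation p = 0.614) and the number of names with at least 10 CPM, counts scaled to a common library total ( 284.8 and 279.3, exact permutation p = 0.37) did not pass either. That number moved in opposite directions in the tissues, by 20.7 in skin and by -23.9 in muscle. Skeletal muscle miRNAs held medians of 1.84% of winter and 1.24% of summer muscle reads, 0.940% and 1.2% of skin reads and 0.147% and 0.108% of gill reads. These markers set muscle apart from gills, but their ranges in muscle and skin overlapped in both seasons. They were 1.319 to 3.355% and 0.780 to 1.675% in winter, and 1.03 to 3.16% and 0.859 to 1.70% in summer.

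In gills, 2 summer libraries stood apart for many miRNAs, the shallow one of fish summer 4 and that of fish summer 2. Left out of the gill means, which was done after seeing the data, the library of summer 4 made the gill difference more than 1.5 times smaller for 12 of the 20 called read profiles described next. Without both, it was that much smaller for 14 and of the other sign for 8 of them. Gill differences that stayed large without both were those of miR-100b-5p (-3.91) and miR-26d-5p (-2.14), while miR-99 had 0.38 and miR-100 0.24. Values without these libraries are given beside the gill values that rest on them.

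Summer and winter fish differed in a limited set of miRNAs when the 3 tissues were averaged. Of 390 names tested, 37 passed (9.49%; limma on fish means, Benjamini-Hochberg adjusted p under 0.05), 18 of them higher in summer (4.62%) and 19 lower (4.87%). At an unadjusted p under 0.05 there were 79 (20.3%). Reads that match several names count for each, and the 37 names rest on 20 distinct read profiles, 9 higher and 11 lower, of 200 profiles tested. The higher ones were miR-99, miR-100 and let-7 family members, miR-7 and miR-15e-5p. The lower ones included miR-214-5p, miR-199-5p, miR-148, miR-460, miR-92a and miR-142, together with minor variants of miR-100 and miR-26. Differences of called names were 0.46 to 2.17 in size on the log2 scale, and the median difference of all tested names was -0.05. The fish means of the seasons did not overlap for 20 of the 37 called names, against 22 of all 390 tested (5.64%). With the batch number, which is 1 to 7 in both collections, as a block, 75 names passed (19.2%; 33 higher and 42 lower), among them all 37. Other scalings left the direction of all 37 names as it was, but changed the split. TMM over all libraries together gave 18 higher and 34 lower, moving the median of all names to -0.12. Scaling by totals only gave 12 higher and 8 lower, with a median of -0.17, so all differences are relative to the other miRNAs.

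**Figure D1:**
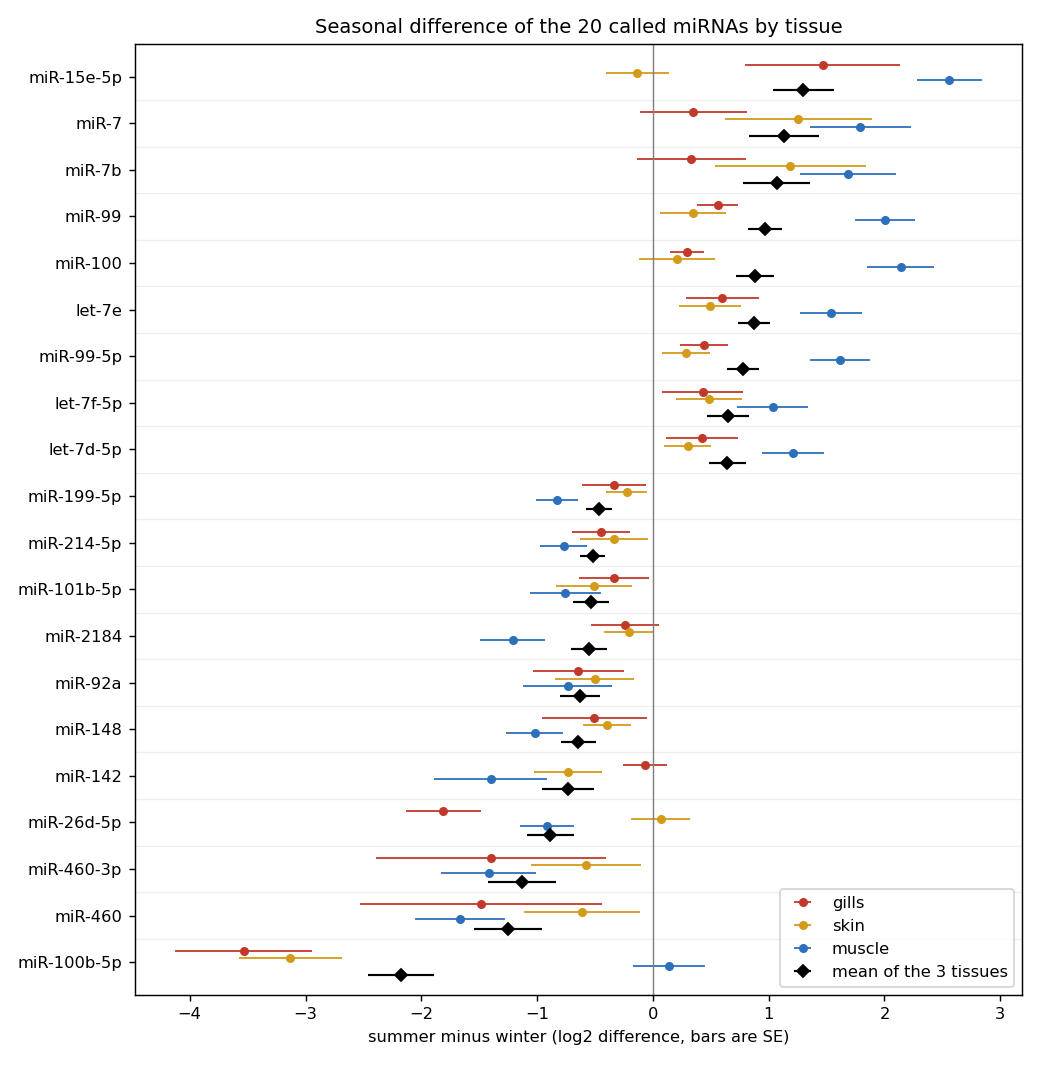
Seasonal difference (x axis, summer minus winter, log2) of the 20 called miRNAs, 1 name per read profile, in gills, skin and muscle (circles) and as the mean of the 3 (black diamonds); bars are standard errors over 7 fish a season. The muscle value lies farthest from 0 for 18 of the 20, and miR-100b-5p, at -2.17 for the mean, is near 0 in muscle.

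Among the miRNAs higher in summer, the smallest p was that of miR-99, of the miR-99 and miR-100 family. These miRNAs, among whose known targets in mammalian cells is the growth kinase mTOR, are encoded in vertebrate clusters together with let-7 and miR-125 members. miR-99 had fish means of 8.66 to 9.11 log2 CPM in winter (median 8.94) and 9.43 to 10.48 in summer (median 9.82). Every summer fish lay above every winter fish. The difference was 0.97 ± 0.15 (SE; 1.96-fold; limma adjusted p = 0.000561). By tissue it was 0.56 ± 0.18 (gills), 0.35 ± 0.29 (skin) and 2.00 ± 0.26 (muscle). Libraries from muscle ran from 6.45 to 8.13 log2 CPM in winter and from 9.12 to 10.18 in summer, while gill and skin libraries of the seasons overlapped. miR-100, the most abundant of the family, had fish means of 11.61 to 12.17 (median 11.95) in winter and 12.34 to 13.39 (median 12.71) in summer, again without overlap. It differed by 0.88 ± 0.16 (limma adjusted p = 0.00221), with 0.29 ± 0.15 in gills, 0.21 ± 0.33 in skin and 2.14 ± 0.29 in muscle. miR-99-5p, counted from a separate profile, differed by 0.78 ± 0.14 (limma adjusted p = 0.00147), and its fish means of 7.43 to 7.96 in winter and 8.15 to 8.99 in summer did not overlap. In all, 7 of the 8 family names tested were higher in summer, against 4.62% of all names. The variant miR-100b-5p was lower, against 4.87% of all names. The 8 names rest on 4 read profiles. The 5 miR-125 names, of the same clusters in other vertebrates, ran from -0.27 to -0.20, and 0 of the 5 passed. Both families were looked up after their values had been seen.

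let-7 miRNAs were first known as timers of late development in Caenorhabditis elegans and are widely expressed in differentiated tissue. let-7e had fish means of 9.41 to 10.28 log2 CPM in winter (median 9.96) and 10.64 to 11.02 in summer (median 10.76). The seasons did not overlap, and the difference was 0.88 ± 0.14 (1.83-fold; limma adjusted p = 0.000702). Gills had 0.60 ± 0.32 (0.33 without summer 4, 0.13 without summer 2 and summer 4), skin 0.49 ± 0.27 and muscle 1.54 ± 0.27. Its tissues did not pass the test of unequal seasonal differences (limma interaction adjusted p = 0.398). let-7d-5p had fish means of 9.66 to 10.64 in winter (median 10.05) and 10.47 to 11.26 in summer (median 10.69), with some overlap. Its difference was 0.64 ± 0.16 (limma adjusted p = 0.0161); that in gills was 0.42 ± 0.31, or 0.16 without summer 4, against 1.21 ± 0.27 in muscle. let-7f-5p, at a far lower level (medians 2.80 and 3.47), differed by 0.65 ± 0.18 (limma adjusted p = 0.0307) and overlapped too. Its call was kept in 8 of the 14 fits that left out 1 fish (limma adjusted p up to 0.0826). It was also lost with totals only, with voom, without skin and without muscle. Of the 20 let-7 names tested, in 12 profiles, 5 rose, against 4.62% of all names, 0 fell and 15 did not pass. All 20 had a positive difference, as had 176 of all 390 names, and the median of the list was 0.35. let-7a, the most abundant member, had a difference of 0.41 ± 0.20 (limma adjusted p = 0.259), and let-7g one of 0.09 ± 0.23 (limma adjusted p = 0.885).

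**Figure D2:**
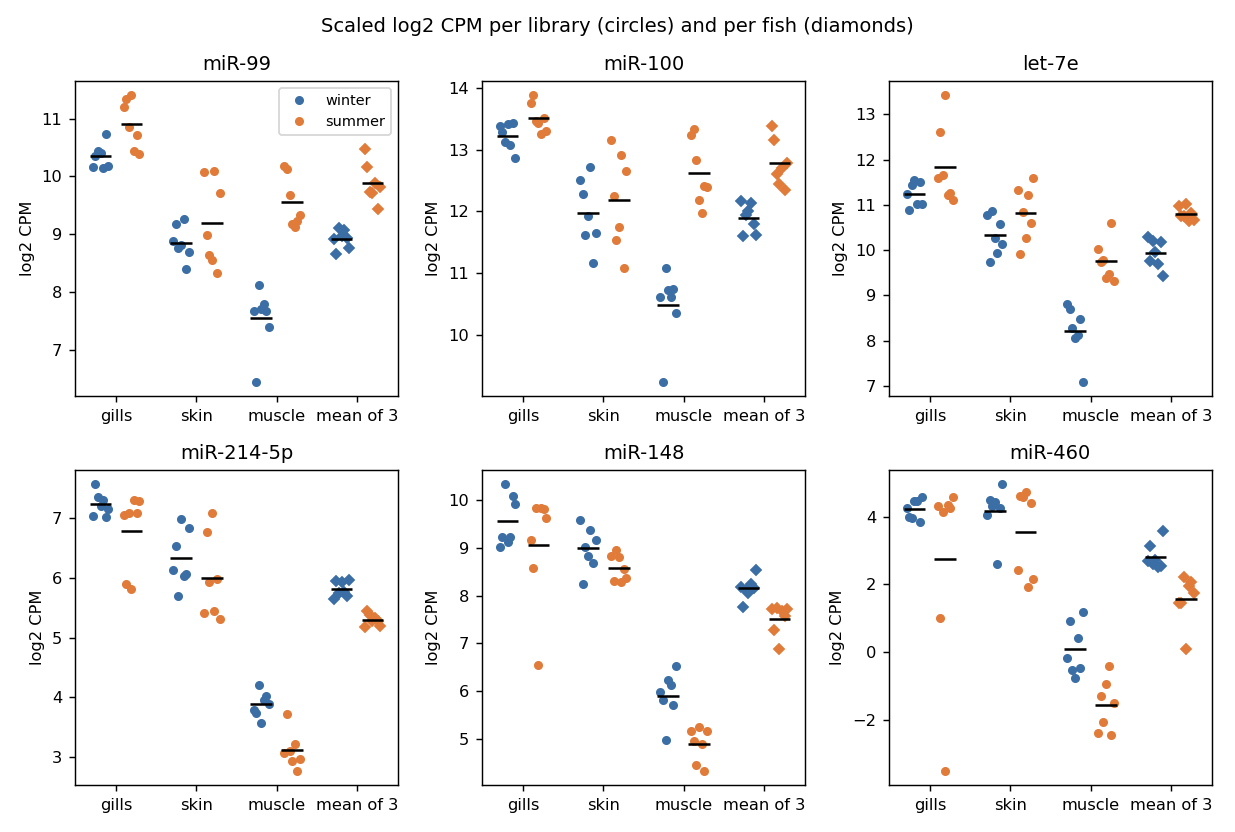
Scaled log2 CPM (y axis) of 6 called miRNAs in each library (circles) by tissue, and the mean of the 3 tissues per fish (diamonds), winter in blue and summer in orange; lines are group means of 7. The diamonds of the seasons do not overlap in any of the 6 panels, while most gill and skin libraries do.

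miR-7 and miR-15e-5p were also higher in summer, both from few reads. miR-7, a miRNA of neurons and endocrine cells in vertebrates, had fish means of -0.53 to 0.85 log2 CPM in winter (median 0.17) and 0.83 to 2.50 in summer (median 1.00). The ranges touched only at their ends. The difference was 1.13 ± 0.30 (2.19-fold; limma adjusted p = 0.0263), made up of 0.35 ± 0.46 in gills (-0.09 without summer 2 and summer 4), 1.26 ± 0.64 in skin and 1.79 ± 0.44 in muscle. Its paralogue miR-7b differed by 1.07 ± 0.29 (limma adjusted p = 0.0263). All 5 miR-7 names, in 2 profiles, were called higher, against 4.62% of all names. In skin both profiles met the minimum count filter only with the summer libraries counted in. Their p values and this count are therefore a description and no support. The call of miR-7 was lost without fish winter 2, summer 1 or summer 7, with the highest adjusted p of these fits at 0.0675. It was also lost with totals only (0.0827), without skin (0.0554), without muscle (0.379) and after thinning to equal totals (0.101). miR-15e-5p carries the name of a family that restrains the cell cycle in mammals. Its fish means ran from -1.47 to 0.31 in winter (median -0.09) and from 0.77 to 1.31 in summer (median 0.94), without overlap. It differed by 1.30 ± 0.26 (limma adjusted p = 0.00485), with 1.47 ± 0.67 in gills (0.84 without winter 2), -0.13 ± 0.27 in skin and 2.56 ± 0.28 in muscle. Winter muscle held 1 to 14 reads of it and summer muscle 14 to 82, while gills held 0 to 42 and 1 to 112. In muscle it met the minimum count filter only with the summer libraries counted in, so its p values are a description and no support. Per 1000 reads of miR-15a-5p there were 7.63 to 28.7 in winter muscle (median 21.4) and 164 to 309 in summer muscle (median 194). miR-15a-5p itself had a difference of -0.06 ± 0.19, and 0 of the 11 names of the miR-15 and miR-16 list passed; that list does not hold miR-15e-5p, the 1 called name of 7 in the miR-15 family.

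miR-214-5p and miR-199-5p were lower in summer. In mammals both come from the transcript opposite a dynamin gene and are typical of fibroblasts and other mesenchyme. miR-214-5p had fish means of 5.65 to 5.95 log2 CPM in winter (median 5.76) and 5.17 to 5.45 in summer (median 5.28). Every summer fish lay below every winter fish. The difference was -0.52 ± 0.11 (1.43-fold lower in summer; limma adjusted p = 0.00574), with -0.45 ± 0.25 in gills (-0.29 without summer 4, -0.08 without summer 2 and summer 4), -0.33 ± 0.30 in skin and -0.77 ± 0.20 in muscle. miR-199-5p had fish means of 8.73 to 9.21 in winter (median 8.96) and 8.07 to 8.67 in summer (median 8.52), also without overlap. It differed by -0.46 ± 0.11 (limma adjusted p = 0.0161), with -0.34 ± 0.27 in gills (-0.08 without summer 4, 0.04 without summer 2 and summer 4), -0.23 ± 0.18 in skin and -0.83 ± 0.18 in muscle. The call of miR-214-5p was lost with voom, without gills and without muscle. That of miR-199-5p was lost with totals only, without fish winter 5, without skin and without muscle. The names miR-214, at 0.00 ± 0.11, and miR-199-3p, at -0.04 ± 0.20, did not pass (limma adjusted p = 0.998 and 0.9). In the cartilage and fibroblast list 3 of 15 tested names fell, against 4.87% of all names, and 0 rose. These 3 are names of the 2 miRNAs just described. The summed share of that list ran from 0.122 to 0.437% of winter and from 0.0801 to 0.167% of summer muscle reads, and the part of this in the result was not tested.

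miR-148 and miR-460 fell as well. miR-148, which in human cells targets the DNA methyltransferase messages DNMT1 and DNMT3B, had fish means of 7.76 to 8.54 log2 CPM in winter (median 8.16) and 6.87 to 7.74 in summer (median 7.67). These ranges came close but did not overlap. The difference was -0.64 ± 0.15 (1.56-fold lower, limma adjusted p = 0.0151). It was split into -0.51 ± 0.45 in gills (-0.09 without summer 4, 0.09 without summer 2 and summer 4), -0.40 ± 0.21 in skin and -1.02 ± 0.24 in muscle. All 7 names of miR-148 and its relative miR-152, in 5 profiles, had negative differences, from -0.69 to -0.53. Of the 7, 2 passed, against 4.87% lower among all names. miR-460 had fish means of 2.50 to 3.57 in winter (median 2.70) and 0.10 to 2.21 in summer (median 1.75). The lowest value is that of fish summer 4, whose shallow gill library held 0 reads of it, a count that allows up to 3 reads. The difference was -1.25 ± 0.29 (limma adjusted p = 0.0148), made up of -1.48 ± 1.04 in gills, -0.61 ± 0.50 in skin and -1.66 ± 0.39 in muscle. The gill value was -0.44 without summer 4 and 0.11 without summer 2 as well. In muscle the name met the minimum count filter only with the winter libraries counted in, at -0.75 to 1.19 log2 CPM. Summer muscle libraries ran from -2.43 to -0.42. The p values of miR-460 are therefore a description and no support for the difference. The call held in all 14 fits that left out 1 fish (adjusted p up to 0.0325), and was lost with voom (0.0515), without skin (0.0750) and without muscle (0.401). The profile miR-460-3p differed by -1.13 ± 0.29 (limma adjusted p = 0.0228). Its call was lost without fish winter 2 or summer 1, with totals only, with voom, and without any 1 of the tissues. In muscle it met the count filter in the same way as miR-460, so its p is a description too. The other tested profile, miR-460-5p, had -0.60 ± 0.22 and did not pass (limma adjusted p = 0.0983).

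The 4 other lower miRNAs stood near the threshold. miR-92a, of the growth-linked miR-17 to miR-92 cluster, had fish means of 8.37 to 9.24 log2 CPM in winter (median 8.77) and 7.88 to 8.59 in summer (median 8.24). The overlapping ranges gave a difference of -0.63 ± 0.17 (limma adjusted p = 0.0307). By tissue there were -0.64 ± 0.39 in gills (-0.35 without summer 4, -0.03 without summer 2 as well), -0.50 ± 0.34 in skin and -0.74 ± 0.39 in muscle. miR-142, a miRNA of blood cells other than red cells, had fish means of 6.47 to 8.22 in winter (median 6.92) and 6.10 to 6.85 in summer (median 6.32). Its difference was -0.73 ± 0.22 (limma adjusted p = 0.0437), with -0.07 ± 0.19 in gills, -0.73 ± 0.29 in skin and -1.40 ± 0.49 in muscle. Fish winter 7 had the highest muscle value, at 6.08 log2 CPM. Without this fish the difference was -0.55 (limma adjusted p = 0.0566). The separate profile miR-142-3p did not pass, at -0.16 ± 0.29 (limma adjusted p = 0.851). It had -0.53 in gills, 0.008 in skin and 0.05 in muscle, so it showed no fall in skin or muscle. The summed share of the white blood cell list was 0.422 to 1.88% in winter and 0.279 to 0.987% in summer muscle, 2.67 to 11% and 3.14 to 14.0% in skin, and 9.52 to 26.5% and 8.04 to 19.5% in gills. All 10 profiles of that list had reads in the series as a whole, which was not counted by group. The part of these shares in the result was not tested. miR-2184 differed by -0.55 ± 0.16 (limma adjusted p = 0.0316), largest in muscle at -1.21 ± 0.28. Its gill value of -0.24 ± 0.29 was -0.01 without summer 4 and 0.11 without summer 2 as well. miR-101b-5p, whose family targets the histone methyltransferase message EZH2 in human cells, differed by -0.53 ± 0.16 (limma adjusted p = 0.0437). Its gill value of -0.34 ± 0.30 was -0.08 without summer 2 and 0.06 without summer 4 as well. When each fish was left out in turn, the calls of miR-92a, miR-2184, miR-142 and miR-101b-5p were kept in 6, 5, 3 and 1 of the 14 fits, with adjusted p up to 0.0966, 0.0988, 0.128 and 0.126. No other direction appeared in these fits.

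A minor variant gave the largest difference among the called names. miR-100b-5p was rare beside miR-100. Its fish means were 4.43 to 5.19 log2 CPM in winter (median 4.83) and 1.80 to 4.03 in summer (median 2.46), without overlap. The difference was -2.17 ± 0.29 (4.51-fold lower; 95% interval -2.78 to -1.57; limma adjusted p = 0.000333). Gills had -3.54 ± 0.59, skin -3.13 ± 0.45 and muscle 0.14 ± 0.31, and it passed within gills and within skin (limma adjusted p = 0.00952 and 0.000989). In muscle miR-100, at 2.14, and the variant, at 0.14, thus had unlike differences. Names that differ by few bases can share reads, so the variant was also read against miR-100 in the same library, a ratio chosen after its values had been seen and given with no test. Gill libraries held 8.98 to 17.1 reads of it per 1000 of miR-100 in winter (median 12.4) and 0.281 to 7.99 in summer (median 0.761). Fish summer 2 gave the 7.99, against 0.281 to 0.829 for the other 6. Skin held 5.74 to 11.2 in winter (median 8.23) and 0.600 to 1.95 in summer (median 0.650), and muscle 2.57 to 6.27 (median 4.08) and 0.644 to 1.38 (median 1.16). As a ratio the seasons did not overlap in any of the 3 tissues. In muscle this went with the higher miR-100, at 2.14, and the variant's own 0.14 there shows no fall.

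miR-26d-5p is likewise rare beside miR-26a-5p, of a family that lies in introns of phosphatase genes in vertebrates. Its fish means were 3.13 to 4.17 log2 CPM in winter (median 3.47) and 2.32 to 3.30 in summer (median 2.56), with a short overlap. The difference was -0.89 ± 0.20 (1.85-fold lower; limma adjusted p = 0.0143), with -1.81 ± 0.32 in gills, 0.07 ± 0.25 in skin and -0.92 ± 0.23 in muscle. Per 1000 reads of miR-26a-5p, gills held 3.01 to 7.41 in winter and 1.03 to 2.77 in summer, without overlap. Skin held 2.05 to 2.96 and 2.13 to 3.74, and muscle 2.68 to 4.63 and 1.48 to 3.07, both overlapping. The miR-26 family otherwise had 5 names tested, of which 0 passed.

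**Figure D3:**
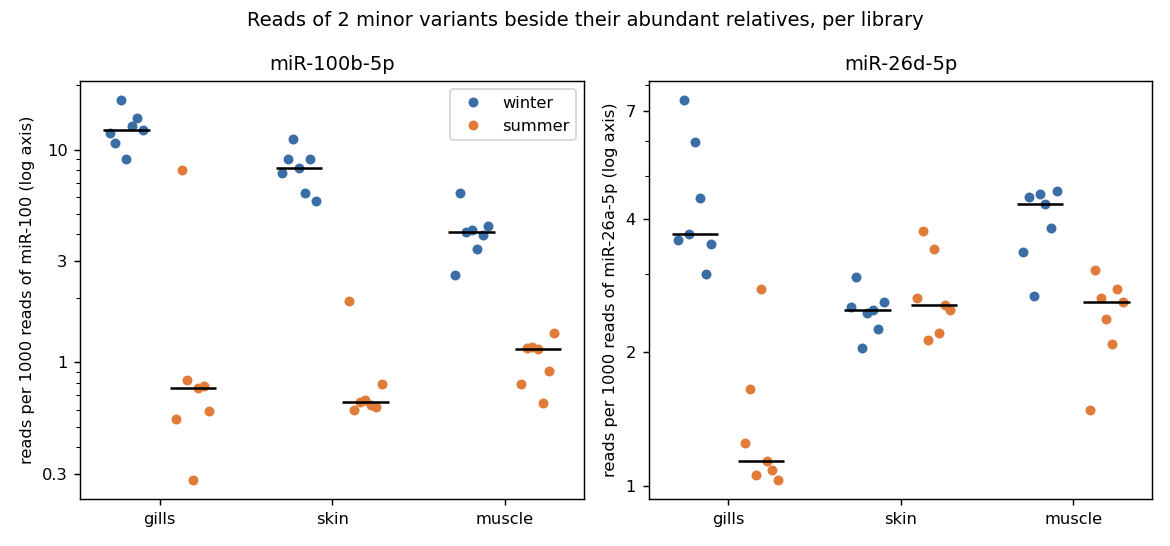
Reads of miR-100b-5p per 1000 reads of miR-100 (left) and of miR-26d-5p per 1000 reads of miR-26a-5p (right) in each of the 42 libraries (y axes, log scale) by tissue, winter in blue and summer in orange; lines are medians of 7. The left ratio is separated by season in all 3 tissues, with medians of 12.4 and 0.761 in gills. In muscle miR-100 itself was higher in summer, by 2.14, while miR-100b-5p had 0.14. The right ratio is separated in gills and overlaps in skin and muscle.

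How far these differences were common to the tissues varied. The seasonal difference had the same sign in gills, skin and muscle for 34 of the 37 called names, against 163 of all 390 (41.8%); the mean is built from the tissue values, so this is a description. The exceptions were miR-100b-5p, with its muscle value above 0, miR-26d-5p, with its skin value above 0, and miR-15e-5p, with its skin value below 0. Of the 20 profiles, 18 had their largest difference in muscle and 2, the variants miR-100b-5p and miR-26d-5p, in gills. Within single tissues 48 names passed in muscle (12.3%), 2 in gills (0.513%) and 1 in skin (0.256%; limma). Of the 37, 28 passed in muscle, 2 in gills and 1 in skin. Single libraries of the seasons did not overlap in muscle for 8 of the 20 called profiles (4.87% of all names), in skin for 1, miR-100b-5p (0.769%), and in gills for 0 (1.28%). Over all tested names the median standard error of a tissue difference was 0.30 for gills, 0.28 for skin and 0.31 for muscle. Single called names departed from this. Errors of miR-460, miR-15e-5p, miR-100b-5p and miR-148 were larger in gills than in muscle, and those of miR-99, miR-100 and miR-142 were smaller. The part of precision in these counts was not tested. The test of unequal seasonal differences between tissues passed for 10 of 390 names (2.56%; limma F test with fish as a block). All 10, in 6 profiles, were among the 37, namely miR-100b-5p, miR-26d-5p, miR-100, miR-99, miR-99-5p and miR-15e-5p. For the remaining 27 names that test did not pass, which does not show equal differences. With muscle left out, 2 of 443 names passed, miR-100b-5p and miR-31-5p, the latter not tested over 3 tissues because of its low muscle counts. In skin miR-31-5p met the count filter through the summer libraries alone, so its p is a description and no support. With gills left out 50 of 406 passed, and with skin left out 15 of 396. The label of a change common to the 3 tissues is thus carried largely by muscle, and the signs in gills and skin often lay within their errors.

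In lists of miRNAs typical of a cell type or process, the counts of members passed stand beside 4.62% higher and 4.87% lower over all 390 names. The lipid and insulin list had 4 of 15 tested names higher and 0 lower, all 4 of them miR-7 names, and a median of 0.28. These 4 met the count filter in skin only with the summer libraries counted in, so their count is a description and no support. miR-27b of the same list had -0.38 ± 0.12 (limma adjusted p = 0.0514, 0.0296 with the batch block) and miR-375 had 0.28 ± 0.15 (0.279). The white blood cell list had 2 of 14 lower and 0 higher, both names of miR-142, and a median of -0.27. The proliferation list had 2 of 30 lower, both miR-92a, a share near that of all names, and a median of -0.02. No name passed among 5 red blood cell, 10 skeletal muscle, 4 smooth muscle, 7 endothelial, 18 epithelial, 2 pigment cell, 14 neural, 8 liver and gut, 10 Hox cluster, 6 hypoxia, 21 osmotic response, 16 clock and light and 9 p53 names tested. At 3 gonad names in the tables, 0 were abundant enough to test.

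Values near the threshold included miR-143 of smooth muscle, at -0.53 ± 0.17 (limma adjusted p = 0.0566), and miR-9, a neural miRNA, at 0.55 ± 0.17 (limma adjusted p = 0.0514). With the batch number as a block both passed (limma adjusted p = 0.0296 and 0.0196). The hypoxia miRNA miR-210 had -0.22 ± 0.14 (limma adjusted p = 0.411), and miR-21, often raised by stress, had -0.10 ± 0.12 (0.682). miR-183, of a sensory cluster, had 0.37 ± 0.20 (limma adjusted p = 0.272). Muscle miR-206 had 0.54 ± 0.27 (limma adjusted p = 0.259, and 0.0227 with the block), keratinocyte miR-203 had 0.62 ± 0.23 (0.105, and 0.0232 with the block) and miR-133a had -0.13 ± 0.12 (0.579). The liver and gut list had the highest median, 0.65, with 1.86 in gills, -0.04 in skin and 0.26 in muscle. miR-192 of that list had 0.85 ± 0.62 and miR-122, the main liver miRNA, 0.77 ± 0.81, and neither passed. The median of this list and that of the p53 list, 0.53, turned negative in edgeR's fit over 42 libraries. Under other scalings the osmotic response median, 0.10, turned to -0.03 with totals only. The miR-15 and miR-16 median, 0.07, turned to -0.06 with totals only and to -0.01 with TMM over all libraries. Leaving out fish or a tissue turned the sign of further list medians, those of the epithelial and the clock and light lists among them. The most abundant miRNAs of the libraries did not pass either. miR-10b, of the Hox clusters, had 0.26 ± 0.18, with 0.74 in gills, -0.45 in skin and 0.51 in muscle. miR-10d-5p had 0.32 ± 0.20 and miR-181a-5p, known from lymphocytes, -0.27 ± 0.19.

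**Figure D4:**
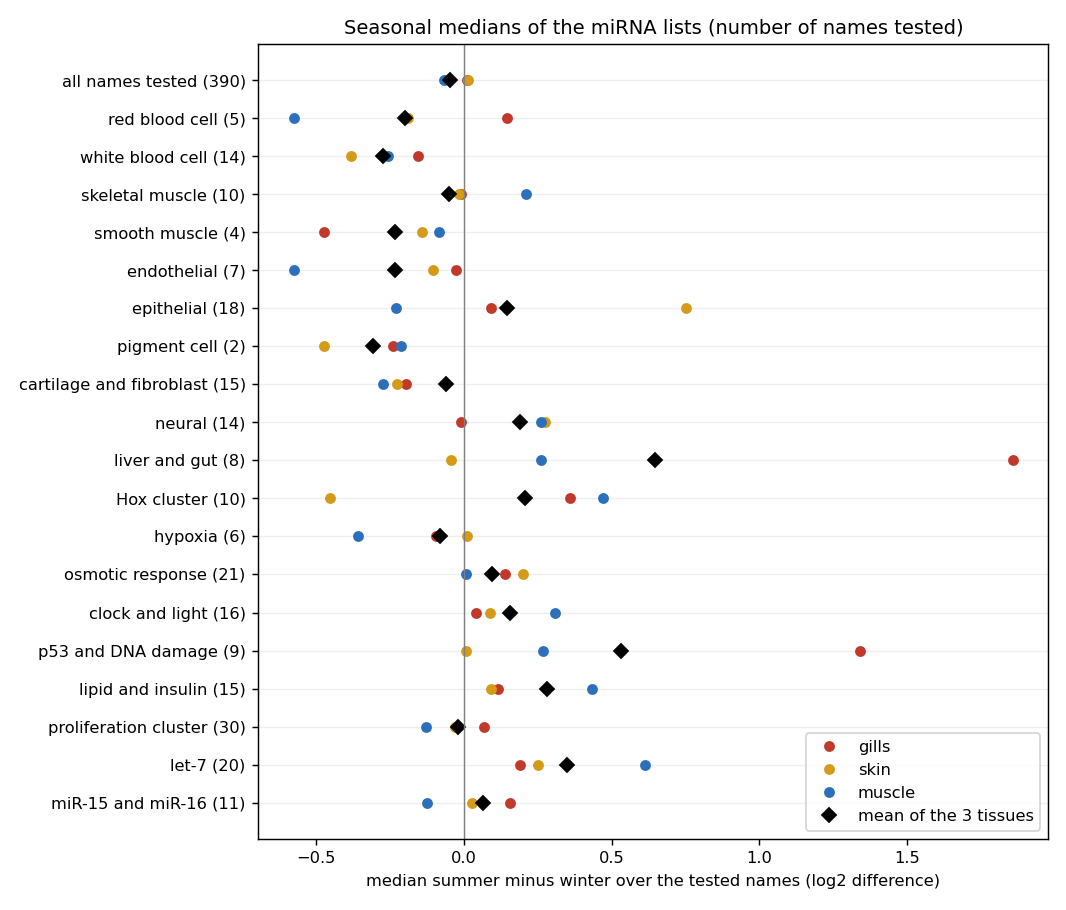
Median seasonal difference (x axis, summer minus winter, log2) over the tested names of each miRNA list, by tissue (circles) and for the mean of the 3 tissues (black diamonds); the number of names tested stands in brackets. The let-7 list lies above 0 in each tissue, with 0.35 for the mean, while the liver and gut list is high in gills alone, at 1.86.

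In muscle, where the called differences were mostly largest, summed shares of several marker lists had lower medians in summer. Red blood cell miRNAs held 0.0143 to 0.0762% of winter muscle reads (median 0.0238%) and 0.00793 to 0.0222% of summer ones (median 0.0148%). Endothelial miRNAs held 0.0766 to 0.661% (median 0.140%) and 0.0449 to 0.234% (median 0.101%), and epithelial miRNAs 0.0235 to 0.0545% and 0.0167 to 0.0322%. The median share of the skeletal muscle list itself was also lower, 1.84% in winter and 1.24% in summer. The ranges of all these lists overlapped. These shares are not scaled. On the scaled values the median muscle difference of the tested skeletal muscle names was 0.21, so above 0. It was -0.57 for red blood cell, -0.57 for endothelial and -0.23 for epithelial names. Each profile of these lists had reads in the series as a whole, which was not counted by group. Hox cluster miRNAs held 85.2 to 92.6% of winter and 87.1 to 93.5% of summer muscle reads. The part of these shares in the muscle differences was not tested. With libraries of a tissue thinned to equal totals, and the fish winter 2 and summer 4 left out, 39 of 340 names passed, 25 higher and 14 lower, including 23 of the 33 called names that could be tested.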

How the data were processed

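Small RNA was size-selected on gels, made into TruSeq libraries and sequenced on a NextSeq 500, with read 1 alone used, per the labels' protocols. The deposited tables hold whole read counts per mature miRNA and precursor, per the file headers, and CPM values scaled by the authors to the table total, which were not tested. The mapper, the reference release and its filters: not given in the sources used here. Names carry 13 species prefixes; 3527 entries common to all 42 tables were reduced to 1342 names without prefix, keeping the highest count. Of these, 672 had a read. Names of at least 42 reads whose counts matched within 5 percent were joined into 338 read profiles, and the text gives 1 name per profile. A read counts under several names, so near-identical names are uncertain as separate molecules.

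Counts became log2 CPM (edgeR 4.0.16, TMM within each tissue, prior count 2), for names that filterByExpr (minimum count 10, total 15) kept in each tissue. Fish means were tested with limma 3.58.1 (moderated test with trend, R 4.3.3), adjusted by Benjamini-Hochberg over 390 names with a threshold of 0.05. edgeR's quasi-likelihood test on 42 libraries treats tissues of 1 fish as independent and is an alternative, as are DESeq2 1.42.0 and voom. The fits were tested on simulated data. Gill libraries had summed counts of 598084 to 27067509, skin libraries of 11091382 to 36093916 and muscle libraries of 18314928 to 57710548. Limits for counts of 0 cover counting error only. Among 126 pairs of same-group libraries 0 were identical; chi-square divided by its degrees of freedom was at least 43.1.

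The batch number equals the number of the fish in both collections. The main test took no account of it, so the 37 calls are unpaired. Only the alternative fit with a block treated it as a pairing, since the label calls it batch. Deviations of same-numbered fish from their season means correlated at a median of 0.43 (0.03 to 0.66), above 0.1 in 6 of 7 pairs. The summer fish that correlated best with a winter fish carried the same number in 3 of 7 cases. These values do not show what a batch shares.

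The miRNAs named are all called profiles, plus for each list its most abundant tested members, and the most abundant names overall. The members and lists were chosen with earlier results of these data known. Not all miRNAs are reported here. Alternatives were other scalings, filters, prior counts, tests, the block, and leaving out fish or tissues. Thinning, the list counts without the shallow fish and the gill means without single libraries were added after seeing the data.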

Additional observations from a re-analysis of the deposited data

Results flagged for a closer look

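In fish summer 4, 3 named miRNAs and the depth lay far from the other summer fish. Its mean was 0.10 log2 CPM for miR-460, -0.040 for miR-460-3p and 8.07 for miR-199-5p, and its mean log2 summed count was 23.32, each the lowest of 7. Its gill library is the shallowest of all. These are 4 of 46 groups of 7 checked, and chance flags about 1 group in 20. Without this fish miR-460, miR-460-3p and miR-199-5p still passed.

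The seasonal difference differed between the 3 tissues for 6 named miRNAs. For miR-15e-5p this is a description, since in muscle it met the count filter only with the summer libraries counted in. The adjusted p of the interaction (limma F test over 390 names) was 0.00101 for miR-100b-5p and for miR-26d-5p, 0.00169 for miR-100, 0.00588 for miR-99, 0.0217 for miR-99-5p and 0.0381 for miR-15e-5p.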

How the results depend on the processing

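The count of 37 called names was 45 with DESeq2 size factors, 51 of 525 names with a single filter over all libraries, 50 of 672 with none, 36 with voom and 37 with a prior count of 0.5 or 5. It was 20 with totals only, 66 with edgeR and 74 with DESeq2 on 42 libraries, 15 of 396 without skin and 2 of 443 without muscle. The cause was not tested. Leaving out 1 fish gave 20 to 54 names. It was 20 without winter 2 and also without summer 1, and 54 without summer 4 (37 higher and 17 lower). Without both fish with shallow gill libraries it was 51 (34 higher and 17 lower). With 1 name per profile 23 passed. The count of 10 names with unequal seasonal differences was 4 with totals only. The seasonal difference in the top 10 share, 0.855 points, turned to -0.145 (exact permutation p = 0.9) with 1 name per profile. miR-100b-5p passed in all 14 fits without 1 fish and all 17 others. miR-99, let-7e, miR-99-5p, miR-100 and miR-15e-5p lost the call without muscle and in no other fit that tested them. After thinning, miR-15e-5p, miR-460 and miR-460-3p were not among the names tested. Besides losing it without muscle, miR-148 lost the call without skin, miR-26d-5p without gills and let-7d-5p after thinning.

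With the batch number as a block, 75 names passed in place of 37, and all 37 were among them. In that fit 33 of all 390 names were higher and 42 lower. The let-7 list had 8 of 20 names higher and the epithelial list 4 of 18. The neural list had 2 of 14 higher and the skeletal muscle list 2 of 10. The smooth muscle list had 2 of 4 lower, and the lipid and insulin list 4 higher and 1 lower of 15. The 4 higher ones are miR-7 names, which met the count filter in skin only with the summer libraries counted in. The proliferation list had 3 of 30 lower, a share near that of all names. miR-206, miR-9, miR-203, miR-143 and miR-27b passed with the block and not without it. Within pairs the difference in log2 summed count had an exact permutation p of 0.0469. Low counts in gills and in muscle limit miR-460, miR-460-3p and miR-15e-5p, and low counts in each tissue limit miR-7 and miR-7b.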

Other observations

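miR-31-5p did not enter the comparison over 3 tissues, as winter muscle libraries held 0 reads of it and summer ones 0 to 2. It is named here after its values were seen. Over gills and skin alone it was higher in summer by 3.23 ± 0.57 (limma adjusted p = 0.00909). In skin it met the minimum count filter through the summer libraries alone. That p is therefore a description and no support for the difference. Skin libraries held 0 to 17 reads of it in winter and 233 to 724 in summer, and gill libraries 3 to 19 and 0 to 279. Per 1000 reads of miR-31, a miRNA of keratinocytes in mammals, skin held 0 to 9.13 in winter (median 4.30) and 67.3 to 156 in summer (median 89.2). Gills held 2.05 to 7.79 (median 3.89) and 0 to 28.3 (median 20.2). The seasons were separated in skin and overlapped in gills, where the 0 is that of the shallow library of fish summer 4.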
